A study of Mus musculus with 12 samples.

Results

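The genes described here are 9 immediate early genes, Fos, Fosb, Jun, Junb, Egr1, Ier2, Atf3, Dusp1 and Nr4a1, in lung tissue of A/J mice. A/J is an inbred strain prone to lung tumours. The genes were chosen by name, and all 14 probe sets that the platform annotation gives to these symbols were taken, of 12422 probe sets and 8251 named genes on the array. Of the 14 probe sets, 11 were bright enough to be tested and 3 were not, and all 9 genes had a tested probe set. Each of the 12 samples was measured on its own Affymetrix array (MG_U74Av2), and all of them were controls that received a saline injection and, as far as the labels say, no other agent. There were 7 samples from 42 weeks after the injection (LZ61, LZ62, LZ63, LZ22, LZ23, LZ24 and LZ25) and 5 from 24 to 26 weeks after it (AJ1, AJ2, AJ4, LZ2 and LZ3). The labels explain neither the AJ and LZ prefixes nor the numbers, and they do not state that each sample came from its own mouse. The p-values therefore reflect how far these samples differ from each other, which may be partly technical.

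Immediate early genes are transcribed within minutes of a stimulus such as a growth factor, a cytokine, stretch, injury or stress, from factors already present in the cell and without new protein synthesis. Most of their messages decay quickly, so that a transcript level reflects the recent state of the tissue. Serum response factor with its Ets partners, and CREB at cyclic AMP response elements, are among the factors that start them, downstream of MAP kinases. In lung, as in other organs, they are known to respond to mechanical strain, to hypoxia and to the handling of tissue at dissection.

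The 9 genes take different roles in this response. Fos and Fosb encode Fos proteins and Jun and Junb encode Jun proteins, which pair through leucine zippers to form the transcription factor AP-1. Egr1 encodes a zinc finger transcription factor, Nr4a1 an orphan nuclear receptor, and Atf3 a leucine zipper factor of the ATF family that often represses. Ier2 encodes a small nuclear protein of less settled function. Dusp1 encodes a phosphatase that inactivates MAP kinases and so closes a feedback loop.

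Promoter windows of 7 of the 9 genes, each running from 250 bases before to 50 bases after the gene's start, were matched by symbol in RefSeq (GRCm38.p6). Those of Dusp1, Nr4a1 and Atf3 are shown because the signal of Nr4a1 varied over the arrays with those of Dusp1 and of Atf3. Dusp1 with Atf3 had a Pearson r of 0.72 (permutation test, adjusted p = 0.0586). The window of Fosb, whose signal also varied with that of Atf3, is not shown. Those of Fos and Junb are shown because these genes had the lowest limma adjusted p of the 9 between the AJ arrays and LZ2 and LZ3, without passing the test. Each is written 5′ to 3′ along the gene's strand, and capitals mark TGACG on either strand (CGTCA on the other), the full palindrome TGACGTCA, and TATAAA.
Dusp1 (chr17:26508423-26508722, minus strand): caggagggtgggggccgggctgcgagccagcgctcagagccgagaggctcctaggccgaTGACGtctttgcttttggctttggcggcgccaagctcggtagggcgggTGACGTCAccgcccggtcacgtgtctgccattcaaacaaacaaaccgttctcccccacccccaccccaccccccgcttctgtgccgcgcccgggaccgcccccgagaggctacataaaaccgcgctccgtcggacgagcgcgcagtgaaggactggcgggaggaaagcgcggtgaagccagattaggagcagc
Nr4a1 (chr15:101266596-101266895, plus strand): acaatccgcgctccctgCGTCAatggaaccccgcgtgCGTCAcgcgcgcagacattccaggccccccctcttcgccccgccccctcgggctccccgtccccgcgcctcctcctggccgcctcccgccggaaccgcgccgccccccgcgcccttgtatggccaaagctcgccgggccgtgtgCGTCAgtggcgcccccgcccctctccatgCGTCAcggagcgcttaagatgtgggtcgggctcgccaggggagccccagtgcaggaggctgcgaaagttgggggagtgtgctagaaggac
Atf3 (chr1:191183284-191183583, minus strand): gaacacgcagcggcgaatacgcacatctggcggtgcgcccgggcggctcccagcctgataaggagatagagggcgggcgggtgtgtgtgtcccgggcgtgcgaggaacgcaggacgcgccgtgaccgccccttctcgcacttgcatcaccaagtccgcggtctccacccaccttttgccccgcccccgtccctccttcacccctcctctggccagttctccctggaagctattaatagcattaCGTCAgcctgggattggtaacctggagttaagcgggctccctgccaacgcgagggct
Fos (chr12:85473640-85473939, plus strand): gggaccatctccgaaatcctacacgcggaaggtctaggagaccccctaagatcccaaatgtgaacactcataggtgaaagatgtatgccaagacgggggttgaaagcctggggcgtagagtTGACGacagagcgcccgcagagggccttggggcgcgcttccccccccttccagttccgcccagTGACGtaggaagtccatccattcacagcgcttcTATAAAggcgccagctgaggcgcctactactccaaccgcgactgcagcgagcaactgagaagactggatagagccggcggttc
Junb (chr8:84978699-84978998, minus strand): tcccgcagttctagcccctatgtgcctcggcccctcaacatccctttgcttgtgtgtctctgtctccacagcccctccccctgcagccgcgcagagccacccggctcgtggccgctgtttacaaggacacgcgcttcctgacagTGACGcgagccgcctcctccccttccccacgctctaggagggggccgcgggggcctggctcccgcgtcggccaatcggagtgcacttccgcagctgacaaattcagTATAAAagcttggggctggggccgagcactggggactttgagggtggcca

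The core of the cyclic AMP response element, TGACG on either strand, was present in 6 of the 7 windows, all except that of Jun, and in 20.8% of 32851 windows of all genes. The Nr4a1 window held 4 copies, the Dusp1 window 3 and the Fos window 2. Of the Dusp1 copies, 2 overlap within the full palindrome TGACGTCA, which lies 143 bases before the start and was present in 1.79% of all windows. TATAAA, searched on both strands, was present in the Fos and Junb windows and in 13.6% of all windows. It lies 33 bases before the start in Fos and begins at position 1 of the start that RefSeq gives in Junb. GCGGGGGCG, a sequence bound by EGR factors, was present on either strand in the Fosb and Nr4a1 windows and in 2.91% of all windows. GGGCGG, the core bound by SP1, was present on either strand in 6 of the 7 windows and in 35.7% of all. CCGGAA, an Ets core, was present in the Nr4a1 window and in 14.9% of all. The AP-1 site (TGAGTCA or TGACTCA) and the CArG box bound by serum response factor were found in 0 of the 7 windows, and in 5.20% and 1.63% of all windows. Sequence farther than 250 bases before the start was not searched, and Egr1 and Ier2 had no window, so sites may lie outside what was read. These matches describe letters in a window and show no binding.

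Values are MAS5 signals on a linear scale, scaled before deposit so that the trimmed mean was 500.3 on every array, and they are compared between arrays for the same probe set and never between genes. Each of the 4 title ranges (LZ61 to LZ63, LZ22 to LZ25, the AJ arrays, LZ2 and LZ3) was run on a day of its own, so title range and run day cannot be told apart, and 0 of the 4 run days held both time points. Lung markers were present on every array: the summed signal of 5 measured alveolar type 2 markers was 54038 to 84143 at 42 weeks and 46590 to 78717 at 24 to 26 weeks. LZ63 stood apart in muscle and squamous markers. Its summed signal of 10 skeletal muscle markers was 54297, where the highest sum on the LZ22 to LZ25 arrays was 1459 and on the arrays of 24 to 26 weeks 1498. On LZ22 and LZ24 cardiac muscle markers had a median of -4.17 and -4.15 (log2) relative to their medians over the arrays, whereas the other 10 arrays ranged from -0.66 to 1.72. Since the samples are whole tissue, fewer cells of a type and less RNA per cell cannot be told apart.

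In the comparison of 42 weeks with 24 to 26 weeks, the question of the design, Junb and Nr4a1 had the largest estimates, 0.65 and -0.68 on the log2 scale (42 weeks minus 24 to 26 weeks). Neither passed the test: 0 of the 9 genes passed limma's test at 5% false discovery, adjusted over 7453 probe sets, against 0.0805% of all tested probe sets. At an unadjusted p under 0.05, 3 of the 9 passed in limma (Junb, Nr4a1 and Atf3), against 14.7% of all, and 2 passed in the exact permutation test (Junb and Atf3), against 13.8% of all. Both tests treat the arrays as independent, although arrays of a title range share a run day, so these p-values may be too small. The groups overlapped for all 9 genes, against 1.50% of all tested probe sets whose groups did not. The point estimate was positive for 2 genes and negative for 7, with a median of -0.26, where the median of all tested probe sets was -0.04.

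Among the genes of AP-1, Junb had signals of 1033, 1213 and 999 on LZ61 to LZ63 and 970, 1179, 817 and 1096 on LZ22 to LZ25 at 42 weeks. At 24 to 26 weeks Junb had 606, 628 and 399 on the AJ arrays and 1070 and 764 on LZ2 and LZ3. All 3 AJ arrays lay below every array of 42 weeks, while LZ2 lay inside the range of 42 weeks and LZ3 just below it. The mean was 1044 ± 134 at 42 weeks (SD, n = 7) and 693 ± 247 at 24 to 26 weeks (SD, n = 5), a log2 difference of 0.65 (95% interval 0.26 to 1.05, limma adjusted p = 0.145). A further tested probe set of Junb gave 0.59 (limma adjusted p = 0.181). The suffixes of their identifiers, _r_at and _i_at, mark probe sets that met fewer of the array maker's design rules.

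Fos, another AP-1 gene with a wide spread, had 642, 387 and 669 on LZ61 to LZ63 and 592, 448, 373 and 598 on LZ22 to LZ25 at 42 weeks. At 24 to 26 weeks Fos had 548, 358 and 498 on the AJ arrays, and 1402 and 713 on LZ2 and LZ3. The LZ2 and LZ3 arrays were the highest of all 12, while AJ1 and AJ4 lay inside the range of 42 weeks and AJ2 just below it. The log2 difference of Fos was -0.28 (95% interval -0.89 to 0.33, limma adjusted p = 0.682), and 0.0089 without LZ2. Fosb averaged 212 ± 85.4 at 42 weeks (SD, n = 7) and 244 ± 38.8 at 24 to 26 weeks (SD, n = 5), with an interval of -0.76 to 0.21 around -0.27. Jun averaged 909 ± 146 at 42 weeks and 833 ± 163 at 24 to 26 weeks, with an interval of -0.17 to 0.44 around 0.13.

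Of the remaining transcription factors, the nuclear receptor gene Nr4a1 had 220, 447 and 298 on LZ61 to LZ63 and 420, 288, 417 and 172 on LZ22 to LZ25 at 42 weeks. At 24 to 26 weeks Nr4a1 had 312, 385 and 472 on the AJ arrays and 690 and 741 on LZ2 and LZ3. LZ2 and LZ3 lay above every other array, and the AJ arrays lay among those of 42 weeks or just above them. The log2 difference was -0.68 (95% interval -1.27 to -0.10, limma adjusted p = 0.277). Atf3 averaged 360.5 ± 56.7 at 42 weeks (SD, n = 7) and 428.5 ± 30.8 at 24 to 26 weeks (SD, n = 5), a log2 difference of -0.26 (95% interval -0.52 to -0.0019, limma adjusted p = 0.335). Its other tested probe set gave -0.28 with a wider interval, -0.71 to 0.15 (limma unadjusted p = 0.188, adjusted p = 0.548). The suffix of the first, _f_at, marks probes that related sequences may share. Egr1 averaged 366 ± 69.7 at 42 weeks and 381 ± 97.7 at 24 to 26 weeks (limma log2 difference -0.04, 95% interval -0.39 to 0.32).

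Ier2 was the steadiest of the 9, with 1236 to 1820 and a median of 1622 at 42 weeks, and 1491 to 1851 with a median of 1717 at 24 to 26 weeks (log2 difference -0.09, 95% interval -0.31 to 0.12). The phosphatase gene Dusp1 had 3401, 5407 and 4129 on LZ61 to LZ63 and 5945, 4179, 4698 and 4607 on LZ22 to LZ25 at 42 weeks. At 24 to 26 weeks Dusp1 had 4559, 5193 and 5161 on the AJ arrays and 7516 and 6149 on LZ2 and LZ3. Again LZ2 and LZ3 were the highest arrays, and the AJ arrays lay inside the range of 42 weeks. The log2 difference of Dusp1 was -0.30 (95% interval -0.61 to 0.0033, limma adjusted p = 0.346). The 3 probe sets too dim to test, 1 each for Fos, Egr1 and Atf3, had mean log2 signals below the 40th percentile of all probe sets. At 42 weeks they read 14.5 to 58.8, 3.6 to 37.9 and 5.2 to 8.5, and at 24 to 26 weeks 22.9 to 40.8, 8.0 to 31.4 and 3.7 to 7.5, in that order of genes.

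**Figure D1:**
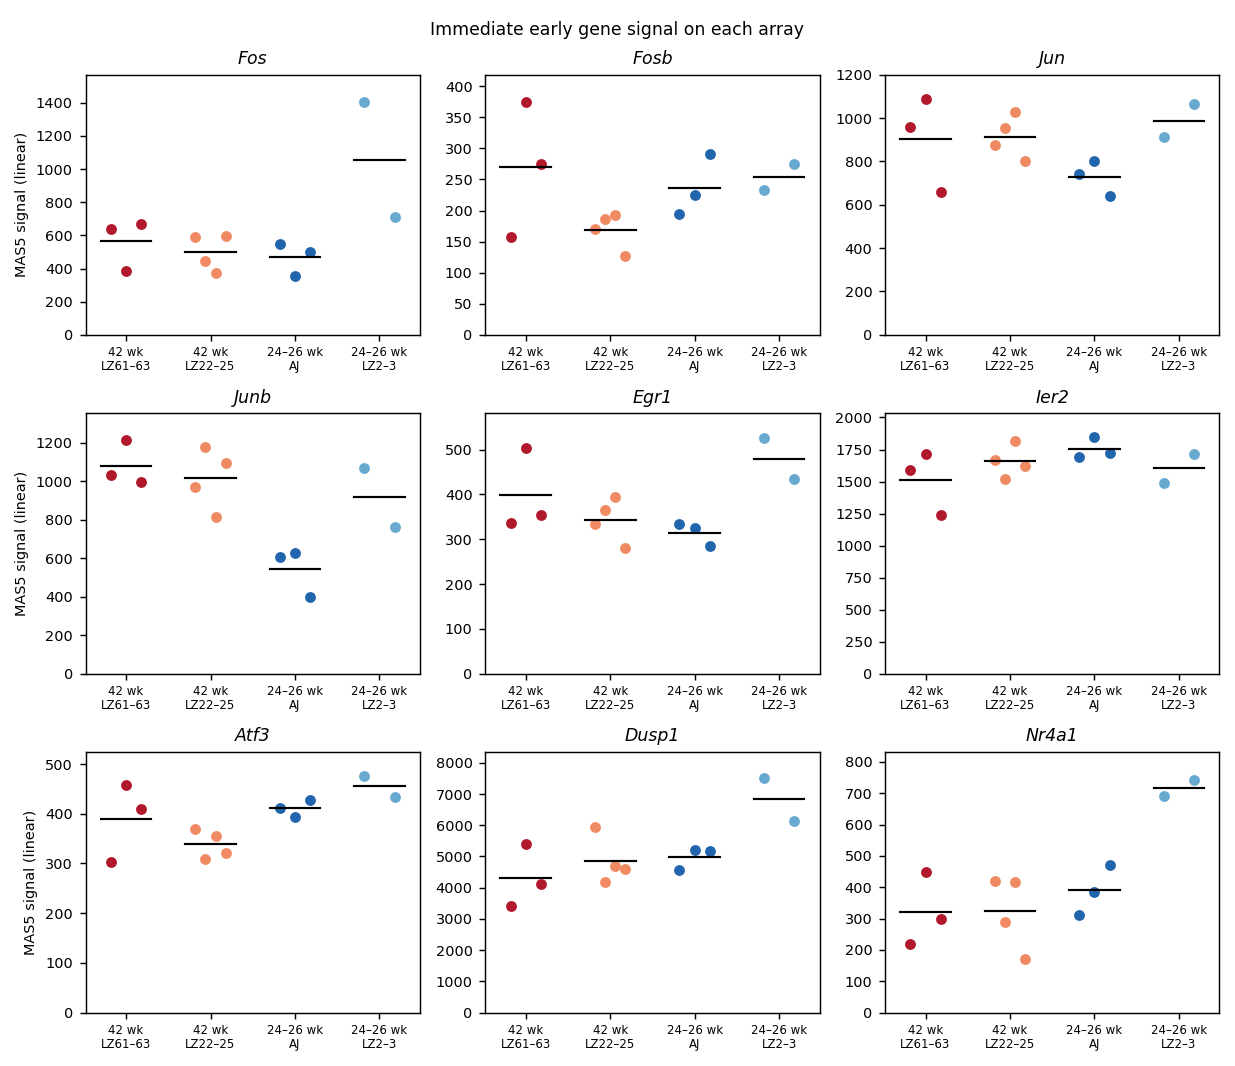
MAS5 signal (linear, vertical axis from 0) of the 9 immediate early genes on each of 12 arrays, grouped by time point and title range (horizontal axis); each point is an array and the line is the group mean. LZ2 and LZ3 are the highest arrays for Fos, Nr4a1 and Dusp1, and the 3 AJ arrays are the lowest for Junb.

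Set against each earlier group separately, the 42-week arrays gave different pictures of the same genes. The 7 arrays of 42 weeks serve in both contrasts, so the values stand side by side and are not independent. The contrast with the AJ arrays came from a fit that left LZ2 and LZ3 out. That with LZ2 and LZ3 came from a fit of all 12 arrays with the title prefix as a block. Their adjusted p-values and shares called are therefore not like for like. Against the 3 AJ arrays, Junb rose by 0.96 on the log2 scale (limma adjusted p = 0.00602, with 5.92% of all tested probe sets called), and adjusted p for Junb over all alternatives of the time comparison ranged between 0.00602 and 0.942. Against LZ2 and LZ3, Junb differed by 0.20 (limma adjusted p = 0.942), and 0 of the 9 genes passed, with 0.0537% of all tested probe sets called. Nr4a1 differed by -0.33 against the AJ arrays and by -1.22 against LZ2 and LZ3, and Fos by 0.17 and -0.95. Dusp1 differed by -0.12 against the AJ arrays and -0.58 against LZ2 and LZ3, and Egr1 by 0.20 and -0.40. Against the AJ arrays 4 of the 9 estimates were positive and 5 negative, and against LZ2 and LZ3 1 was positive and 8 were negative. With run day as a random block, Junb differed by 0.63 (limma adjusted p = 0.618) and Nr4a1 by -0.72 (limma adjusted p = 0.732).

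The AJ arrays and the LZ2 and LZ3 arrays were all from 24 to 26 weeks, and 0 of the 9 genes passed the test between them. Fos, Jun, Junb, Egr1, Atf3, Dusp1 and Nr4a1 were lower on every AJ array than on LZ2 and LZ3, which is 7 of 9 genes, against 18.1% of all tested probe sets lower on every AJ array. The point estimate was negative for 8 of the 9, with a median of -0.45, where the median of all tested probe sets was 0.04 and 44.6% were negative. Limma called 0 of the 9 at 5% false discovery, against 2.50% of all. At an unadjusted p under 0.05 limma gave 6, all lower on the AJ arrays, against 8.08% of all. With 3 arrays against 2 the exact permutation test has 10 splits and cannot give a p under 0.1, and it gave 0 of the 9 at an unadjusted p under 0.05.

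The largest estimate was that of Fos, with a mean of 468 ± 98.4 on the AJ arrays (SD, n = 3) and 1057 ± 488 on LZ2 and LZ3 (SD, n = 2), a log2 difference of -1.12 (95% interval -1.83 to -0.41, limma adjusted p = 0.0903). It was -1.61 without LZ3 and -0.63 without LZ2, the extremes when single arrays were left out. Nr4a1 followed with 390 ± 80.3 on the AJ arrays and 715 ± 35.8 on LZ2 and LZ3, a log2 difference of -0.90 (95% interval -1.71 to -0.09, limma adjusted p = 0.227). Junb differed by -0.76 (95% interval -1.24 to -0.28, limma adjusted p = 0.0879), with 544 ± 126 on the AJ arrays and 917 ± 216 on LZ2 and LZ3, and its other probe set by -0.81 (limma adjusted p = 0.0536).

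Egr1 had 334, 325 and 285 on the AJ arrays, against 525 and 434 on LZ2 and LZ3, a log2 difference of -0.60 (95% interval -1.05 to -0.16, limma adjusted p = 0.139). Jun had 742, 802 and 642 on the AJ arrays, against 911 and 1065 on LZ2 and LZ3, a log2 difference of -0.44 (limma adjusted p = 0.262). Dusp1 differed by -0.45 (limma adjusted p = 0.219). The groups of Egr1, Jun and Dusp1 did not overlap, with every AJ array lower. Atf3 had 411, 394 and 427 on the AJ arrays, against 476 and 434 on LZ2 and LZ3, a narrow gap with a log2 difference of -0.15 (95% interval -0.53 to 0.23). Fosb had 195, 224 and 291 on the AJ arrays and 233 and 275 on LZ2 and LZ3, and Ier2 had 1693, 1851 and 1721 on the AJ arrays and 1491 and 1717 on LZ2 and LZ3. For both genes the groups overlapped, with log2 differences of -0.12 (95% interval -0.80 to 0.57) and 0.13 (95% interval -0.18 to 0.45).

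Other measures moved with the same contrast, and their part in it was not tested. The ratio of the 3′ to the 5′ control probe set of b-actin, a measure of RNA integrity and labelling, was 1.24 to 1.28 on the AJ arrays and 1.05 to 1.06 on LZ2 and LZ3. For Gapdh the ranges overlapped, at 0.767 to 0.805 and 0.766 to 0.883. Summed signals of the 5 alveolar type 2 markers were 46590 to 49408 on the AJ arrays and 66906 to 78717 on LZ2 and LZ3, and limma called 1 of 4 tested markers lower on the AJ arrays, Sftpc (log2 difference -0.85, adjusted p = 0.0154). Both measured club cell markers, Scgb1a1 and Cyp2f2, were called lower too, with sums of 26732 to 30124 on the AJ arrays and 39983 to 50556 on LZ2 and LZ3. Of all tested probe sets, limma called 2.50% in this contrast. Sums of 8 endothelial markers were 30696 to 33209 on the AJ arrays and 37922 to 42710 on LZ2 and LZ3. Those of 3 red blood cell markers were 30027 to 34818 and 41467 to 48576, and limma called 0 of either list. For the other listed cell types the sums overlapped. The call of Sftpc and that of Scgb1a1 were lost without AJ4 or LZ3, and that of Cyp2f2 in 10 of 12 fits with 1 array left out. These marker genes were named after their values were seen.

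Between the LZ61 to LZ63 arrays and the LZ22 to LZ25 arrays, all from 42 weeks, the median of the 9 log2 estimates was 0.10, where that of all tested probe sets was -0.01. Limma called 0 of the 9, against 1.50% of all tested probe sets, and 1 (Fosb) passed at an unadjusted p under 0.05, against 19.8% of all. The exact permutation test over 35 splits gave 0 of the 9 at an unadjusted p under 0.05, against 10.8% of all. The groups overlapped for all 9, against 16.0% of all tested probe sets whose groups did not. Fosb had 157, 375 and 276 on LZ61 to LZ63, against 171, 187, 192 and 127 on LZ22 to LZ25, so 2 of the 3 arrays lay above all 4 and LZ61 among them. Its log2 difference was 0.60 (95% interval 0.03 to 1.18, limma adjusted p = 0.232), and it was 0.32 without LZ62 and 0.95 without LZ61 (limma adjusted p = 0.0618). The other 8 estimates lay between -0.19 for Dusp1 and 0.20 for Egr1. Without LZ62 these were -0.36 for Dusp1 and 0.019 for Egr1, and without LZ61 they were -0.027 for Dusp1 and 0.31 for Egr1. The estimates of Nr4a1, Jun, Fos, Junb and Ier2 changed sign under other scalings, weights, probe sets or array subsets. Of 8 tested macrophage markers, limma called 1 lower on LZ61 to LZ63, Cd68 (adjusted p = 0.0451, lost in 11 of 12 fits with 1 array left out), and the part of macrophage and muscle markers in these values was not tested.

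**Figure D2:**
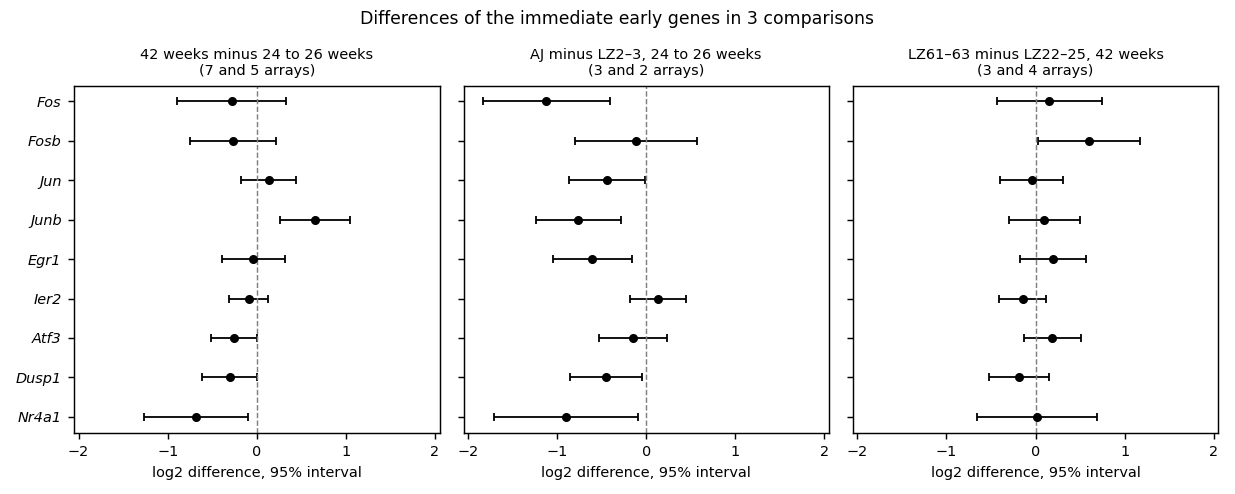
Log2 difference (horizontal axis) with its 95% limma interval (bars) for the 9 genes in 3 comparisons, 42 weeks minus 24 to 26 weeks, AJ minus LZ2 and LZ3, and LZ61 to LZ63 minus LZ22 to LZ25. In the comparison of AJ with LZ2 and LZ3, 8 of the 9 points lie left of 0, and Fos has the largest difference at -1.12.

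Seen array by array, each gene was expressed relative to its own mean over the 12 arrays. LZ2 was the highest array, with a mean of 0.45 (log2) over the 9 genes and 8 genes above their own mean, and it held the highest value of Fos, Egr1, Atf3 and Dusp1. LZ3 followed with 0.29, and held the highest value of Nr4a1. Among the arrays of 42 weeks LZ62 stood out with 0.25 and 8 genes above their mean, and it held the highest value of Fosb, Jun and Junb, while its Fos was 0.54 below the mean of Fos. The other tested probe set of Junb read 667 on LZ62, the lowest of the 42-week arrays, and 921 on LZ61, the highest of them. That of Atf3 was highest on LZ62, at 235, and read 182 on LZ2. LZ25 was the lowest at -0.26, and held the lowest value of Fosb, Egr1 and Nr4a1. The AJ arrays ranged between -0.14 and -0.11, inside the range of the 42-week arrays. LZ62 also had the highest Gapdh 3′ to 5′ ratio of the 12 arrays, 1.04, and a b-actin ratio of 1.19, the highest of the 42-week arrays, and the part of RNA integrity in its values was not tested.

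**Figure D3:**
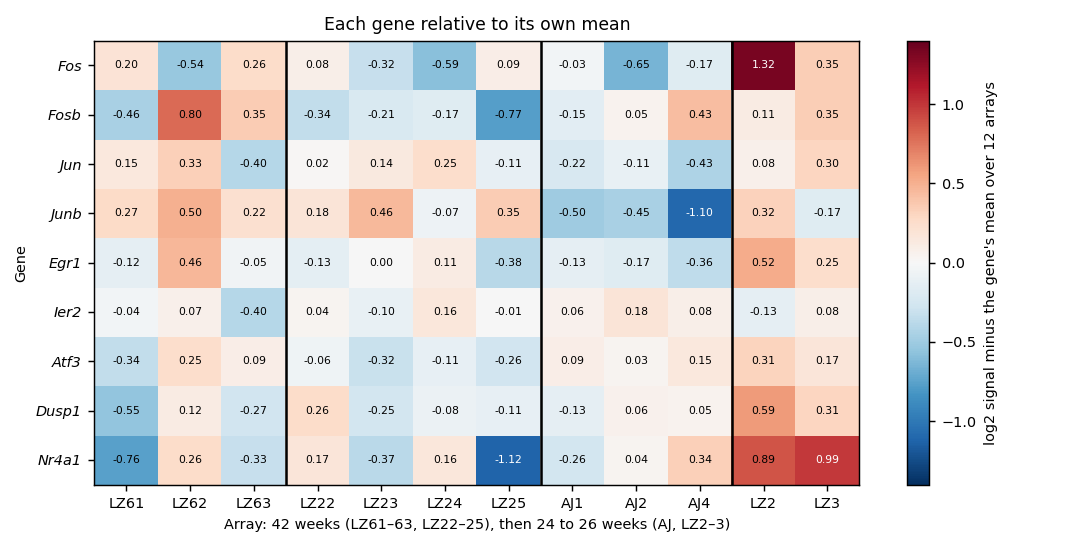
Log2 signal of each gene (rows) minus that gene's mean over 12 arrays (colour and printed value), with arrays in columns and black lines between title ranges. LZ2, LZ3 and LZ62 have 8 of 9 genes above their own mean, and the 3 AJ arrays are below it for Junb.

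The genes differed widely in how much they varied. Over 12 arrays the SD on the log2 scale was 0.61 for Nr4a1 and 0.54 for Fos, at or above that of 94.5% and 92.3% of all tested probe sets. Junb had an SD of 0.48, above 89.7% of tested probe sets, and Fosb 0.44, above 86.3%. Dusp1, Egr1 and Jun had SDs of 0.30, 0.29 and 0.26, near the median of all tested probe sets, which was 0.26. Atf3 had 0.22, and Ier2 had 0.16, at the percentile 9.65. Within title ranges the median SD of the 9 genes was 0.23, against 0.22 for all tested probe sets.

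Some of the 9 genes varied together. Of 36 pairs over 12 arrays, 25 had a Pearson r above 0 and the median r was 0.28. The arrays share run days, so the r of each pair was also taken after title-range means were removed, where the median was 0.17. After Benjamini-Hochberg adjustment over the 36 pairs, 3 passed a permutation test of r (two-sided, 100000 permutations), and 7 did at an unadjusted p under 0.05. The permutations ran over all 12 arrays and not within run days, so a shift shared by a run day counts towards r. These p-values may therefore be too small, and none was computed for r within title ranges. The same counts were not taken over pairs of other genes, so they do not set these 9 apart. Dusp1 and Nr4a1 had r = 0.82 (permutation p = 0.00138, adjusted 0.0315) and Spearman's rho = 0.85 (permutation p = 0.00083, adjusted 0.0217). Their r was 0.65 within title ranges, and 0.73 and 0.95 without the 2 arrays farthest from the median of Dusp1 or of Nr4a1.

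Fosb and Atf3 had r = 0.80 (permutation p = 0.00175, adjusted 0.0315) and rho = 0.83 (permutation p = 0.00177, adjusted 0.0217), with r = 0.76 within title ranges and 0.75 and 0.83 without the 2 farthest arrays of each. Atf3 and Nr4a1 had r = 0.78 (permutation p = 0.0029, adjusted 0.0348) and rho = 0.82 (permutation p = 0.00181, adjusted 0.0217), with r = 0.70 within title ranges and 0.74 and 0.75 without the 2 farthest arrays. All 3 pairs therefore kept their sign in these subsets. Atf3 and Dusp1 had r = 0.72 and did not pass (permutation p = 0.00651, adjusted 0.0586). Fos did not go with the others in this way. Its r was -0.08 with Fosb and 0.42 with Dusp1 (-0.12 without LZ2). With Ier2 its r was -0.52 (permutation p = 0.091, adjusted 0.273) and its rho -0.66 (permutation p = 0.023, adjusted 0.119). Within title ranges the r of Fos was -0.56 with Fosb, -0.67 with Ier2 and -0.73 with Jun. Its only positive r there was 0.14, with Junb.

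**Figure D4:**
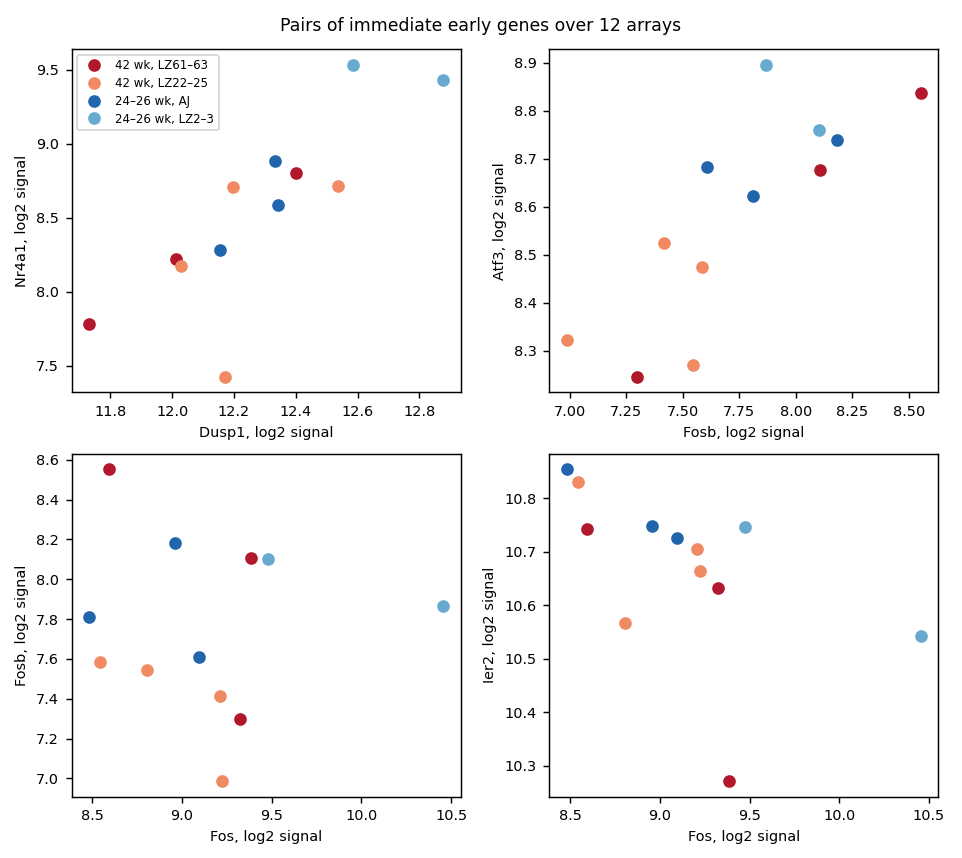
Log2 signal of 4 pairs of genes over 12 arrays (points, coloured by title range). Dusp1 with Nr4a1 (r = 0.82) and Fosb with Atf3 (r = 0.80) vary together, whereas Fos with Fosb (r = -0.08) and Fos with Ier2 (r = -0.52) do not.

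Other genes of the immediate early response gave few calls. Between the time points, limma called 0 of the 24 measured other transcription factors, 0 of the 26 measured non-factor genes, 0 of the 15 AP-1 and other leucine zipper partners and 0 of the 4 MAP kinase phosphatases. The share called of all tested probe sets was 0.0805%. Between the AJ arrays and LZ2 and LZ3, 18 of the 24 transcription factors and 13 of the 15 AP-1 partners had negative estimates, both with a median of -0.28. Limma called 0 of either, against 2.50% of all tested probe sets. Of all tested probe sets 44.6% had negative estimates, with a median of 0.04. These lists share some genes, so their counts may include the same ones. Of the 26 non-factor genes, 2 fell on the AJ arrays and 15 had negative estimates. Zfp36, whose protein promotes decay of AU-rich messages including several of these, had 593, 787 and 697 on the AJ arrays, against 1514 and 969 on LZ2 and LZ3 (limma log2 difference -0.82, adjusted p = 0.0364). Nfkbia, which encodes an inhibitor of NF-kB, had 2264, 1943 and 2698 on the AJ arrays, against 3555 and 3748 on LZ2 and LZ3 (limma log2 difference -0.68, adjusted p = 0.0459).

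In both genes every AJ array was lower than LZ2 and LZ3. The call of Zfp36 was lost in 7 and that of Nfkbia in 9 of 12 fits with 1 array left out. The log2 difference of Zfp36 ranged between -1.14 without LZ3 and -0.50 without LZ2 in these fits, and that of Nfkbia between -0.80 and -0.56. Dusp8, a MAP kinase phosphatase, went the other way, with 398, 629 and 642 on the AJ arrays, against 209 and 115 on LZ2 and LZ3 (limma log2 difference 1.81, adjusted p = 0.0353, lost in 6 of 12 such fits). At 42 weeks Egr2, a zinc finger factor related to Egr1, fell on LZ61 to LZ63, with 167 ± 10.8 there (SD, n = 3) and 312 ± 54.8 on LZ22 to LZ25 (SD, n = 4), a limma log2 difference of -0.89 (adjusted p = 0.0347, lost in 9 of 12 such fits). Atf5 rose there, with 1737 ± 112 on LZ61 to LZ63 and 1048 ± 97.3 on LZ22 to LZ25 (limma log2 difference 0.73, adjusted p = 0.0347, lost in 7 of 12 such fits). Of all tested probe sets, limma called 0.0805% for the time points, 2.50% for AJ against LZ2 and LZ3, and 1.50% for LZ61 to LZ63 against LZ22 to LZ25. Of the remaining lists, the 11 heat shock genes, the 9 hypoxia genes, the 12 clock genes, the 13 upstream kinases and factors and the 2 cytokines gave 0 calls in all 3 comparisons, and the 11 genes of AU-rich decay gave the Zfp36 call. The clock gene Dbp had the smallest p among these in the comparison of time points, with 286 ± 70.9 at 42 weeks (SD, n = 7) and 526 ± 154 at 24 to 26 weeks (SD, n = 5), a limma log2 difference of -0.88 (adjusted p = 0.101). Nr1d1, a clock repressor, differed by -0.30 (limma adjusted p = 0.360), and Hmox1, heme oxygenase, by -0.36 (limma adjusted p = 0.149). Between the AJ arrays and LZ2 and LZ3, the kinase gene Map3k1, upstream of Jun, had 480 ± 80.1 on the AJ arrays (SD, n = 3) and 774 ± 57.1 on LZ2 and LZ3 (SD, n = 2), a limma log2 difference of -0.70 (adjusted p = 0.0639). Between LZ61 to LZ63 and LZ22 to LZ25 the limma log2 difference was -0.53 for Map2k1 (adjusted p = 0.0935), 0.34 for Hspa5 (adjusted p = 0.189) and 0.46 for Pdk1 (adjusted p = 0.221). For the time points it was 0.34 for Adm (adjusted p = 0.300), and for the cytokines 0.41 for Cxcl1 and -0.43 for Il1b (adjusted p = 0.536 and 0.731).

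Of 5722 other genes, those whose profile over the 12 arrays was most like the mean profile of the 9 genes were Rpp30 (r = 0.89), Golga7 (r = 0.86), Zfp322a (r = 0.84), Nfkbia (r = 0.83) and Pcgf2 (r = 0.82), followed by Mapkbp1, Abl1, Pcsk5, Samd4b and Chmp6 at 0.79 to 0.81. The most opposite were Mmp12, macrophage elastase (r = -0.87), Igha, the constant region of IgA (r = -0.84), Timm10b (r = -0.83), Fcgbp (r = -0.81) and Gm2a (r = -0.80). Mmp12 read 152 and 117 on LZ2 and LZ3 and 275 on LZ62, where the mean profile of the 9 genes was highest. It read 322 to 2036 on the other arrays. Without LZ2 the r of Rpp30 was 0.89 and that of Mmp12 was -0.84. These r are a description over 12 arrays that share run days, and the genes were picked for their r from all those ranked. Of the 9 genes themselves, each set against the mean of the other 8, r was 0.87 for Egr1, 0.73 for Dusp1, 0.70 for Nr4a1 and 0.67 for Atf3, between 0.25 and 0.40 for Fos, Jun and Fosb, and -0.01 for Junb and -0.12 for Ier2.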

How the data were processed

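Total RNA of lung was extracted with Trizol and biotin-labelled, per the labels' protocols, and each of the 12 samples had its own array. The authors deposited intensity values on a linear scale, computed with MAS5 per the submitters' processing notes. The sources used here give neither its version nor a genome build. The deposited intensity values had a shared 2% trimmed mean and were not scaled again. MAS5 subtracts mismatch signal, which makes low values noisy, and such scaling hides a change shared by most transcripts. The authors' run records, deposited per array, gave the run days and were otherwise not used.

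After removal of 66 control probe sets, 12422 remained. Genes were named from the platform annotation: 10833 probe sets had 1 symbol, 396 several and 1193 none listed. No pseudocount was added before taking log2, because no value was negative or 0, and probe sets with a mean below the 40th percentile, near a signal of 108, were dropped, and 7453 were tested. Where a gene had several, its brightest probe set represented it.

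Two-sided tests between time points used limma 3.58.1 in R 4.3.3, with the trend and robust options of eBayes (statmod 1.5.0). Adjusted p-values are Benjamini-Hochberg values across the 7453, called at 5% false discovery. AJ against LZ2 and LZ3, and LZ61 to LZ63 against LZ22 to LZ25, came from 1 fit of the 4 title ranges. The fit was tested on simulated data. Correlations used log2 values and scipy 1.17.1. Promoter windows were read from RefSeq (GRCm38.p6).

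The 9 genes, the gene lists and the alternatives were chosen with earlier results of these data known. Every probe set of the 9 genes is reported. Of each list, up to 4 genes past the test are named, and for a list with none up to 2 of the lowest p; genes most like the 9 are the 10 highest and 5 lowest by Pearson r. Alternatives were other scalings, filters, a pseudocount of 28.7, array weights, plain eBayes, other probe sets, run day (consensus correlation 0.227) or title prefix as a block, array subsets, each array left out, and an exact permutation test.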

Additional observations from a re-analysis of the deposited data

How the results depend on the processing

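The 9 genes gave 0 calls in each comparison, and so they did in 24 of 27 alternatives for the time points, 21 of 23 for AJ against LZ2 and LZ3, and 23 of 23 for LZ61 to LZ63 against LZ22 to LZ25. For the time points 1 gene, Junb, was called with array weights (0.77, limma adjusted p = 0.0221), 1 with only the AJ arrays at 24 to 26 weeks, and 0 to 1 when single arrays were left out (Junb without LZ2, 0.83, limma adjusted p = 0.0335). For AJ against LZ2 and LZ3, 2 were called with array weights (Fos, -1.31, limma adjusted p = 0.0156, and Egr1, -0.59, adjusted p = 0.0445) and 1 with only the 5 arrays of that time point (Nr4a1, adjusted p = 0.0414). Of 654 alternatives for single genes, 618 kept direction and side of the threshold, 30 reversed and 6 passed the test. Many of the 654 could not change the direction. Another filter, plain eBayes, the permutation test, or leaving out an array outside a title-range contrast leaves an estimate as it was. Most genes also have no other tested probe set, and the permutation test cannot pass for AJ against LZ2 and LZ3. The 618 are therefore no measure of stability. For the time points, Egr1 reversed to 0.017 with quantile normalization, 0.0023 with equal medians, 0.013 with array weights, 0.20 with only the AJ arrays at 24 to 26 weeks and 0.075 with only LZ61 to LZ63 at 42 weeks. Fos reversed to 0.032 with array weights and 0.17 with only the AJ arrays, Fosb to 0.071 with only LZ61 to LZ63, and Jun to -0.13 with the title prefix as a block. For LZ61 to LZ63 against LZ22 to LZ25, Nr4a1 reversed to -0.031 with quantile normalization, -0.063 with equal medians and -0.073 with array weights, and Jun to 0.071 with array weights. Without LZ22, LZ24 and LZ63, Jun reversed to 0.23, Fos to -0.056, Junb to -0.022 and Ier2 to 0.072, and the other probe set of Junb gave -0.047. With single arrays left out, Egr1 ranged between -0.14 and 0.086 (0.016 without LZ3, 0.022 without LZ25) and Fos between -0.48 and 0.0089 for the time points, and Fosb between -0.28 and 0.011 (0.00033 without LZ3) for AJ against LZ2 and LZ3. For LZ61 to LZ63 against LZ22 to LZ25, such ranges were -0.26 to 0.26 for Nr4a1 (-0.012 without LZ23, -0.25 without LZ62), -0.20 to 0.17 for Jun (0.014 without LZ24) and -9.4e-05 to 0.18 for Junb. The cause of these reversals was not tested. Over all probe sets, the 6 calls for the time points were 550 with array weights, 441 with only the AJ arrays, 17 with quantile normalization, 14 with only LZ22 to LZ25 and 12 with only LZ61 to LZ63 at 42 weeks, 1 with run day as a random block, 1 without LZ22, LZ24 and LZ63, and 4 to 38 with single arrays left out. The 186 calls for AJ against LZ2 and LZ3 were 776 with array weights, 312 with only that time point's arrays, 121 without a filter, 381 without LZ22, LZ24 and LZ63, and 0 (without LZ3) to 374 (without LZ63) with single arrays left out. The 112 calls for LZ61 to LZ63 against LZ22 to LZ25 were 292 with equal medians, 23 with plain eBayes, 45 without a filter, 3 without LZ22, LZ24 and LZ63, 0 with only the arrays of 42 weeks, and 0 to 84 with single arrays left out. The exact permutation test made 0 calls in any comparison, with 1031, 0 and 803 probe sets at an unadjusted p under 0.05. Fosb had no value under the 60th percentile filter. No paired analysis was possible because the labels give no replicate numbers shared between groups. The number of arrays limits the precision: over all tested probe sets, log2 differences had a median SE of 0.15 for the time points and 0.20 for AJ against LZ2 and LZ3. Among the 9 genes the SE ranged from 0.10 for Ier2 to 0.28 for Fos for the time points. For AJ against LZ2 and LZ3 it ranged from 0.15 for Ier2 to 0.37 for Nr4a1.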
